A study of Homo sapiens with 9 samples.

Results

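The 39 genes described here make up the NRF2 and antioxidant programme as it was listed for these data, out of 57500 genes in each count table. The rule names them for their known roles and uses no measured value, although the list was drawn up with earlier results of these data known. All 39 were found, 37 through the gene names of the deposited tables and AKR1C1 and AKR1B10 through a reference table of names. HEK293T cells, a human embryonic kidney line that carries the SV40 large T antigen, were incubated for 5 h with 10 µM HBC530, with 10 µM MsOc3HBC or with DMSO alone. Each of the 3 groups held 3 libraries, which the study describes as biological replicates, and all cells were of this same line with no further genotype given. HBC530 is a fluorophore ligand that binds the RNA aptamer Pepper without a covalent bond, and MsOc3HBC is its relative with a mesylate-bearing handle that can alkylate RNA. The labels name no aptamer for the sequenced cells. The question asked of these genes was whether the reactive ligand changed the transcripts that cells raise against electrophiles, relative to the solvent and to the ligand without the handle.

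NRF2, the product of NFE2L2, is a transcription factor that is held at a low level by KEAP1, an adaptor that passes it to a ubiquitin ligase. Electrophiles and oxidants modify cysteines of KEAP1, whereupon NRF2 accumulates, pairs with a small MAF protein and binds antioxidant response elements near its target genes. The targets make and recycle glutathione, reduce proteins and peroxides through thioredoxin, degrade heme and store iron, supply NADPH, and conjugate or export foreign compounds. In cultured cells exposed to electrophiles, HMOX1, NQO1, GCLM, TXNRD1, SRXN1 and OSGIN1 are among the transcripts commonly used as readouts.

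The core of the antioxidant response element is shown because it is the sequence through which NRF2 acts on its target genes. Promoter windows of 300 bases, 250 before and 50 after an annotated start, were available from RefSeq (GRCh38.p14) for 30 of the 39 genes, in 42 windows. Both strands were searched for TGACNNNGC, the core, and for TGANTCA, the AP-1 site, which can share letters with it. The core was present in 10 of the 42 windows (23.8%), which belong to 9 genes, compared with 4687 of all 35116 windows (13.3%). The AP-1 letters were present in 3 windows (7.14%), compared with 7.71% of all. The 9 genes were PGD, GCLM, EPHX1, IDH1, ME1, GSTP1, TXNRD1, KEAP1 and CBR1. A match of these letters is a description of the window, not a measured binding site. Stretches around a core, from windows of GCLM (chr1:93909431-93909504, minus strand), TXNRD1 (chr12:104215640-104215728, plus strand) and KEAP1 (chr19:10502777-10502865, minus strand), are given for 2 target genes and the NRF2 inhibitor itself. Those of ME1 (chr6:83431140-83431228, minus strand) and GSTP1 (chr11:67583706-67583794, plus strand) are given because the core and the AP-1 letters overlap in them, and that of IDH1 (chr2:208255166-208255254, minus strand) because this gene had the smallest p of all members against DMSO. Each stretch is written 5′ to 3′ along the gene's strand, with every core inside it in capitals. Cores outside the stretches are not shown. The same windows of TXNRD1 and ME1 hold a further core on the other strand, at -8 and 11 bases from the start. Another TXNRD1 window holds a core at -102. In GCLM the core lies on the other strand, so its reverse complement is in capitals, and KEAP1 holds 1 core on each strand, the one on the other strand with the same letters as in GCLM.
GCLM: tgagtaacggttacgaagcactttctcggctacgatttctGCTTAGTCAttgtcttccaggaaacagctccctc
TXNRD1: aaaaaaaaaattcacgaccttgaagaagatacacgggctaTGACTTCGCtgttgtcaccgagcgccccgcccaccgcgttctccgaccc
KEAP1: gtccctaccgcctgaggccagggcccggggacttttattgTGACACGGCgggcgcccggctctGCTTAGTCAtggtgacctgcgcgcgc
ME1: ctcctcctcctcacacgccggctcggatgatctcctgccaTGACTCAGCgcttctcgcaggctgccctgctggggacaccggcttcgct
GSTP1: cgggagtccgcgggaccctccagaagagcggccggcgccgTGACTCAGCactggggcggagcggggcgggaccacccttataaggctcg
IDH1: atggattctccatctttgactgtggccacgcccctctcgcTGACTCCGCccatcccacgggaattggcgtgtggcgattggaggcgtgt
In ME1 and GSTP1 the 9 letters are the same, TGACTCAGC. The transcripts of all 6 genes, described in turn, were within 0.5 of 0 on the log2 scale in every comparison.

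The libraries held between 28056929 and 62205366 counts on genes, and the members took between 0.647 and 0.736% of them. Replicate 3 of both ligands lay apart from the other 7 libraries on the first principal component of 18041 genes, at 36.9 and 48.8 compared with -20.3 to -4.29, and was also the least deep library of its group. Replicates of a treatment differed beyond sampling noise (mean chi-square of 5.21 to 58.4 per gene, where sampling alone gives 1). Of 8 genes known from HEK293 lines (VIM, CDH2, PAX2, LHX1, NEFL, NEFM, KRT8, KRT18), 7 reached 1 RPKM, whereas PAX2 did not. Markers of blood and endothelium summed to at most 0.0334 RPKM in any library, liver markers to 0.808, kidney tubule markers to 2.23 and fibroblast markers to 4.68. Of the 4 kidney tubule markers 1 reached 1 RPKM, and of the 3 fibroblast markers 2 did. UMOD, of the thick ascending limb, was the 1 tubule marker with 0 counts in every library, and the leukocyte gene PTPRC had at most 0.00521 RPKM. Bulk RNA cannot separate fewer cells expressing a gene from less of its RNA in each cell.

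With DMSO, the thiol peroxidase PRDX1 had the highest level per length, 487 ± 11.3 RPKM (mean ± SD, n = 3 here and for every level and group below), where RPKM is reads per kilobase of exons, scaled to library size with TMM factors. It was followed by the ferritin light chain FTL at 397 ± 19.6 RPKM and by the glutathione transferase GSTP1 at 275 ± 33.7. SOD1, TXN, GPX4 and FTH1 came next, with means from 200.4 to 229, and SDs of 5.17 to 22.8. The gap between SOD1 and TXN exceeded the SD of each, whereas the gaps from TXN to GPX4 and from GPX4 to FTH1 were smaller than the SDs of the genes on either side. Many of the inducible target genes were low. HMOX1 stood at 11.1 ± 0.182, GCLM at 8.36 ± 1.17, SRXN1 at 4.16 ± 0.243, NQO1 at 2.64 ± 0.141 and OSGIN1 at 0.321 ± 0.0446 RPKM. The aldo-keto reductases AKR1C1 and AKR1B10 had 0 to 4 counts in a library and were not tested, which left 37 genes in every comparison. Reads were counted at unique positions, so FTH1, FTL, PRDX1 and AKR1C1, which have near-identical copies in the genome, may have lost reads and their levels are uncertain.

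**Figure D1:**
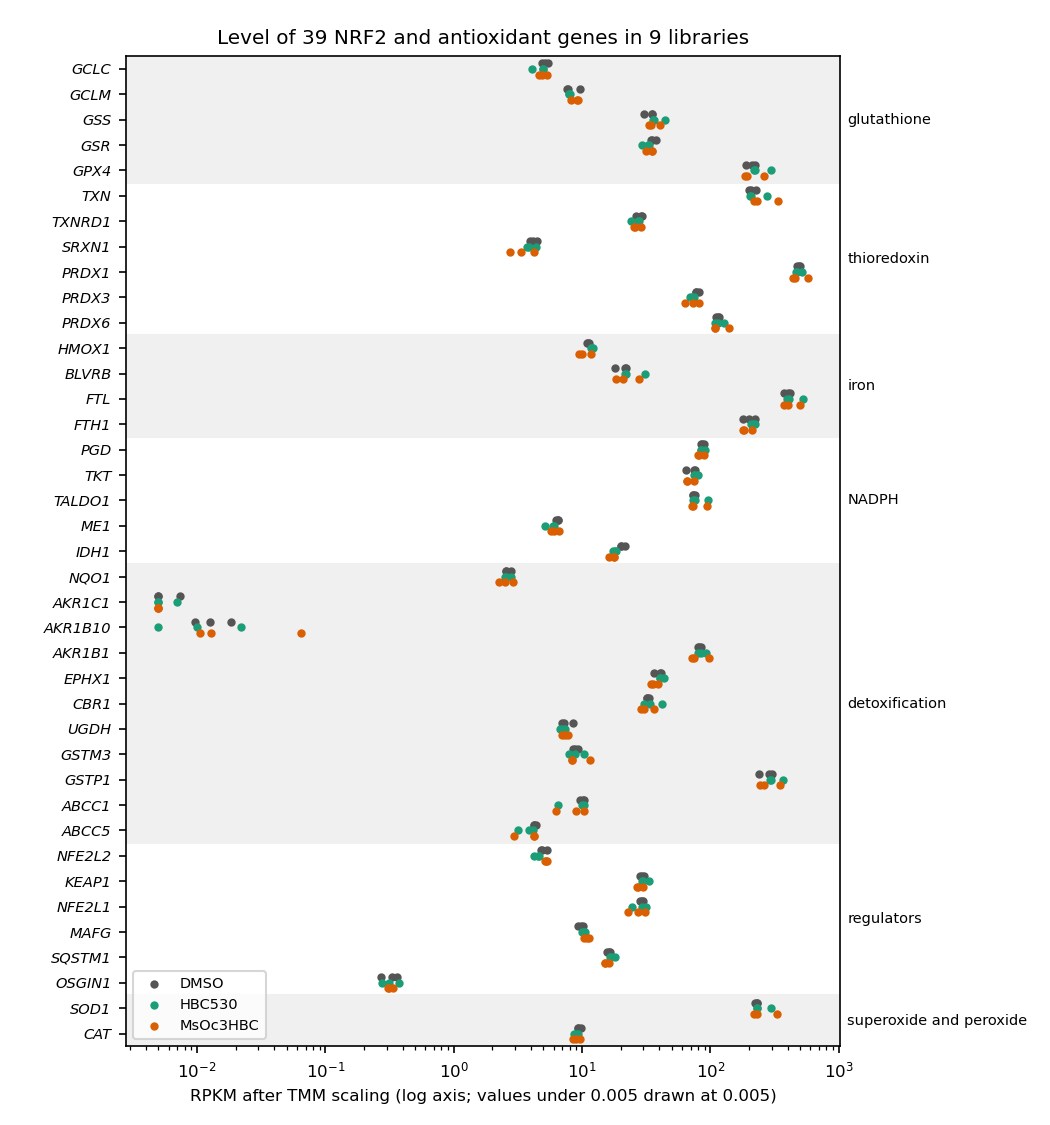
RPKM after TMM scaling on a log axis for the 39 members (rows, shaded by role), with 1 point for each of the 3 DMSO, 3 HBC530 and 3 MsOc3HBC libraries. The points of the 3 treatments overlie one another for most genes, from OSGIN1 at 0.321 RPKM with DMSO to PRDX1 at 487, and AKR1C1 and AKR1B10 lie near 0.

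Of the 37 tested members, 0 were called with either ligand against DMSO when the limit was an adjusted p below 0.05 (quasi-likelihood F test of edgeR, adjusted after Benjamini-Hochberg over all genes tested). Among all genes, this threshold called 0.0170% with HBC530 against DMSO (3 of 17684) and 0.154% with MsOc3HBC against DMSO (27 of 17514). DESeq2 (0.136 and 0.862% of all genes) and limma-voom (0.0283 and 0.120%) also called 0 members in these comparisons. An unadjusted p below 0.05 was reached by 1 member with each ligand, IDH1, which was lower. Of all genes, 5.07 and 10.9% reached it, 2.38 and 4.78% on the lower side. The looser limit in the study's methods, a log2 fold change beyond 1 together with an adjusted p below 0.5, was passed by 0 members and by 0.0226 and 0.560% of all genes.

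The fold changes were small and their intervals narrow. With HBC530 the members' log2 fold changes ran from -0.20 to 0.27 with a median of 0.03, compared with 0.0046 over all genes, and 21 of 37 lay above 0 (51.1% of all genes). With MsOc3HBC they ran from -0.26 to 0.31 with a median of -0.05, compared with 0.01 over all genes, and 14 of 37 lay above 0 (52.4% of all genes). The 95% interval lay within -0.5 to 0.5 for 35 members with HBC530 and 33 with MsOc3HBC, and within -1 to 1 for all 37 with each. Among all genes, 59.7 and 55.9% had an interval inside the narrower limits and 90.1 and 88.3% inside the wider ones. With HBC530, 2 members had libraries all above DMSO and 6 all below it, where 7.17 and 6.64% of all genes did not overlap in those directions. With MsOc3HBC, 1 was above and 1 below, where 9.34 and 8.96% of all genes were. A log2 fold change of 1 was outside the interval of every tested member against DMSO. The comparisons with DMSO share the same 3 DMSO libraries, so their values are given side by side and are not independent.

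**Figure D2:**
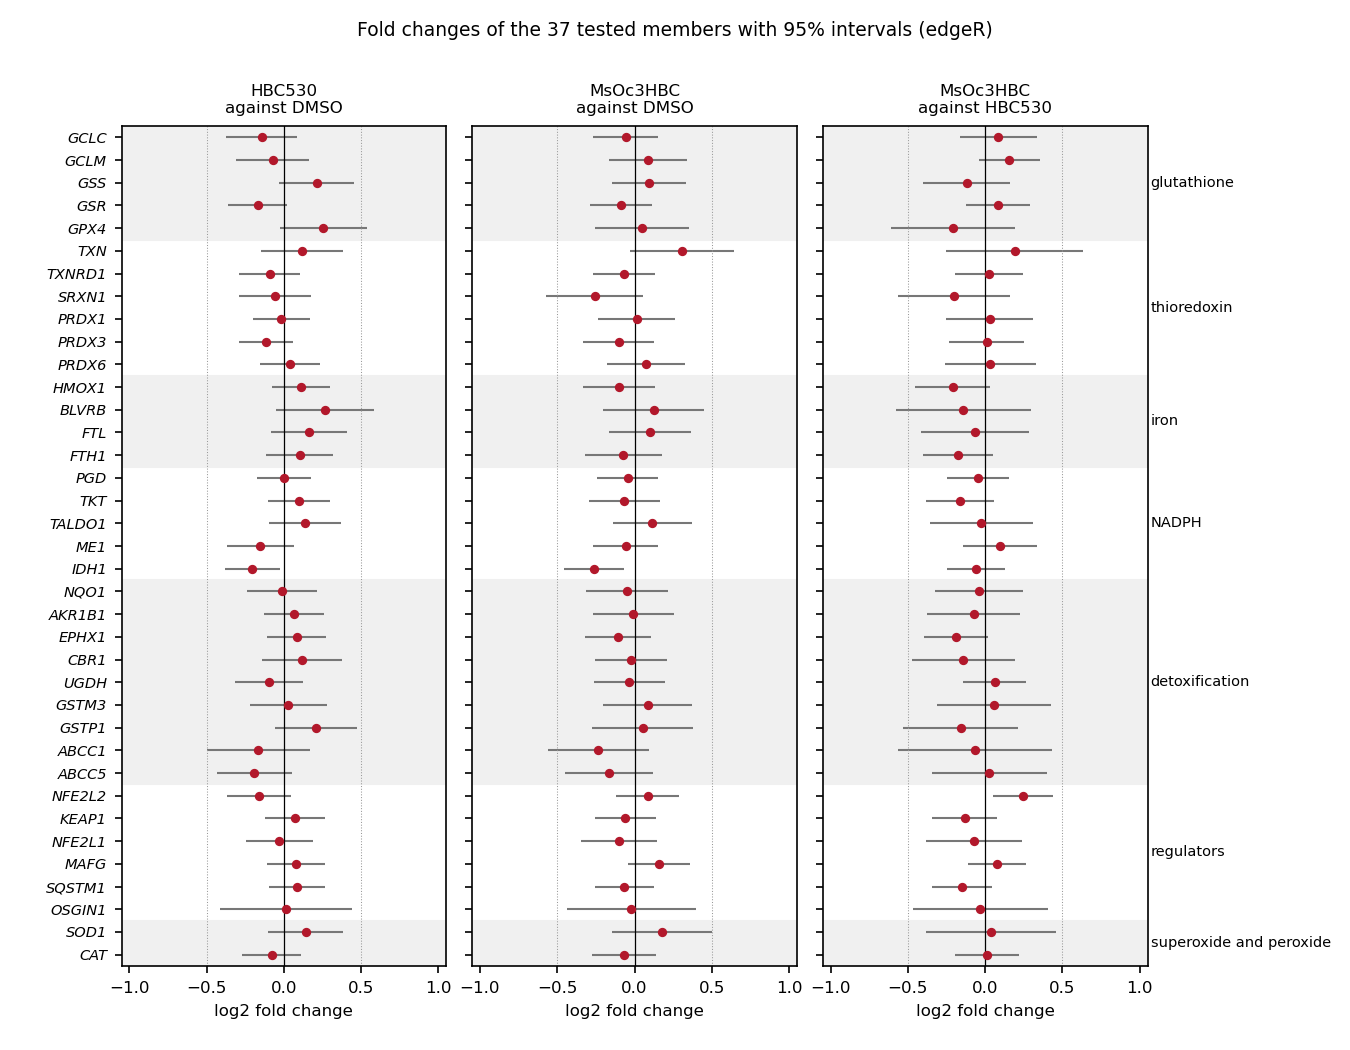
Log2 fold change (points) with 95% interval (lines) of the 37 tested members by role, for HBC530 against DMSO, MsOc3HBC against DMSO and MsOc3HBC against HBC530. Dotted lines mark -0.5 and 0.5; all points lie between -0.26 and 0.31, and every interval stays inside -1 to 1.

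Of the regulators, NFE2L2 itself had 32.0, 28.9 and 28.4 CPM (counts scaled to library size with TMM factors) in the DMSO libraries, 27.6, 26.9 and 25.2 with HBC530 and 31.4, 30.9 and 32.1 with MsOc3HBC. The 3 HBC530 libraries lay below all DMSO libraries, while those of MsOc3HBC overlapped them. Its log2 fold change against DMSO was -0.16 (SE 0.0927, 95% interval -0.37 to 0.05) with HBC530 and 0.09 (SE 0.0935, 95% interval -0.12 to 0.29) with MsOc3HBC, and the former was -0.11 without DMSO replicate 1. NFE2L2 (chromosome 2, 177227595 to 177392697 in GRCh38) shares 54 exonic bases with AGPS on the opposite strand and 1054 with AC019080.1 on the same strand. Part of its counts can come from those genes or be lost to them. KEAP1, the inhibitor of NRF2, had 106, 110.2 and 113 CPM with DMSO, 111, 109.8 and 125 with HBC530 and 102, 102 and 111 with MsOc3HBC. All 3 groups overlapped. Its log2 fold change was 0.07 (SE 0.0866, 95% interval -0.12 to 0.26) and -0.06 (SE 0.0897, 95% interval -0.26 to 0.14) with the ligands in the same order. OSGIN1, a growth inhibitor induced by oxidative stress, was close to the limit of counting. It had 52.0, 75.0 and 59.0 counts with DMSO, 50.0, 75.0 and 36.0 with HBC530 and 48.0, 58.0 and 31.0 with MsOc3HBC. The difference from DMSO was 0.01 (SE 0.192, 95% interval -0.41 to 0.44) with HBC530 and -0.02 (SE 0.191, 95% interval -0.44 to 0.40) with MsOc3HBC, the widest intervals of any member in these comparisons. MAFG, a small MAF partner of NRF2, was the member with MsOc3HBC libraries all above DMSO, at 59.2, 54.3 and 57.1 compared with 48.3, 51.5 and 53.5 CPM, a log2 difference of 0.16 (SE 0.0918, 95% interval -0.04 to 0.36) that did not pass the test. It shares 105 exonic bases with SIRT7. SQSTM1, the autophagy receptor that competes with NRF2 for KEAP1, and NFE2L1, a related transcription factor, differed from DMSO by -0.10 to 0.08 with either ligand; SQSTM1 overlaps MRNIP and MGAT4B.

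**Figure D3:**
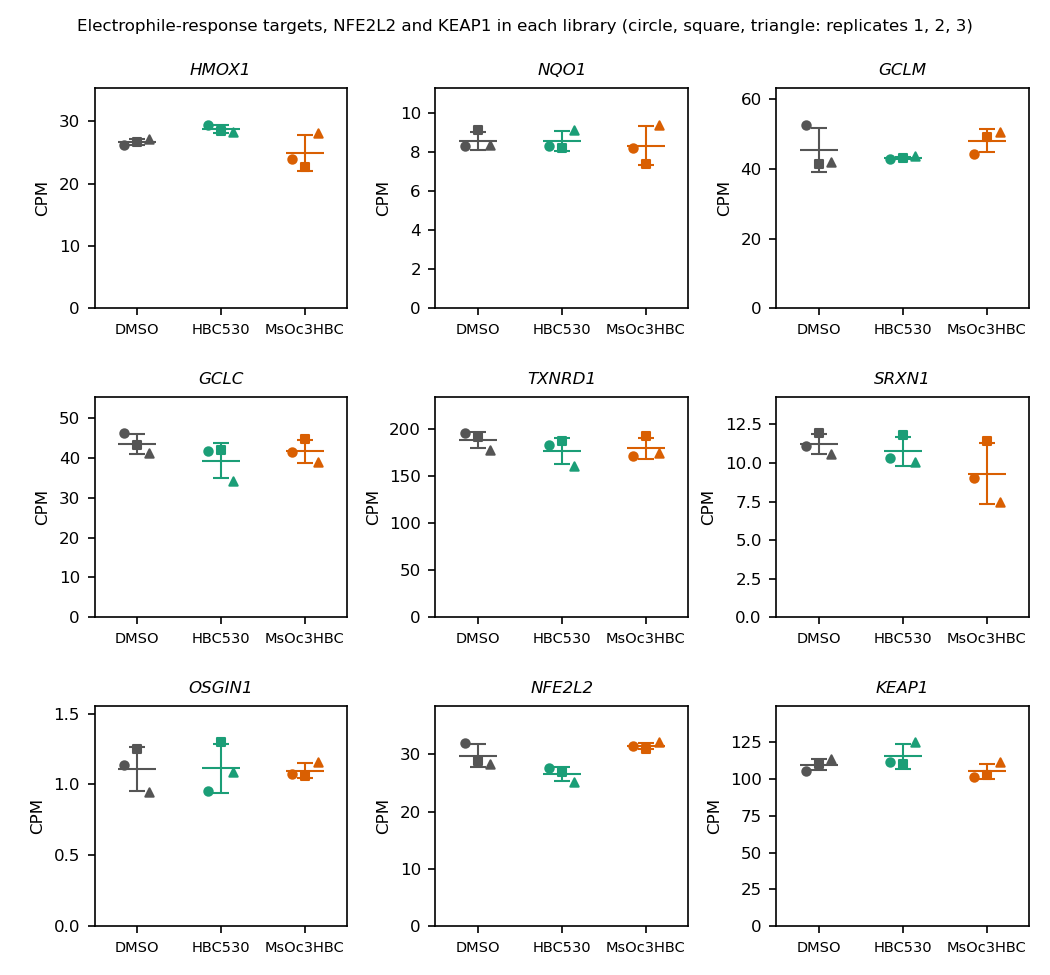
CPM from 0 upward for 7 electrophile-response targets, NFE2L2 and KEAP1, with 1 symbol per library (circle, square and triangle for replicates 1, 2 and 3) and the group mean with its SD as a bar. HMOX1 with MsOc3HBC spans 22.6 to 28.1 CPM, on both sides of the DMSO libraries, and NFE2L2 with HBC530 lies below the other groups.

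In the glutathione group, the subunits of glutamate-cysteine ligase, the rate-limiting enzyme of glutathione synthesis, were measured at moderate depth. The modifier subunit GCLM had 52.6, 41.4 and 41.9 CPM with DMSO, 42.7, 43.0 and 43.5 with HBC530 and 44.3, 49.0 and 50.6 with MsOc3HBC. Replicate 1 was the highest DMSO library, and both ligands overlapped DMSO. Against DMSO it differed by -0.07 (SE 0.107, 95% interval -0.31 to 0.17) with HBC530 and 0.09 (SE 0.114, 95% interval -0.17 to 0.34) with MsOc3HBC. The catalytic subunit GCLC had 46.1, 43.2 and 41.2 CPM with DMSO, 41.8, 42.0 and 34.2 with HBC530 and 41.4, 44.8 and 39.03 with MsOc3HBC, which gave -0.14 (SE 0.104, 95% interval -0.37 to 0.09) and -0.06 (SE 0.0951, 95% interval -0.27 to 0.15). Replicate 3 was the lowest library of each treatment, and without that of HBC530 the first of these was -0.05. GSR, which regenerates reduced glutathione, was among the 3 members with the smallest p for HBC530. Its libraries read 122, 112 and 113 CPM with DMSO, 107, 106 and 95.4 with HBC530 and 101, 113 and 113 with MsOc3HBC. All 3 HBC530 libraries lay below DMSO, and the difference was -0.17 (SE 0.0863, 95% interval -0.36 to 0.02) with an adjusted p of 0.751 (edgeR, Benjamini-Hochberg), and -0.11 without HBC530 replicate 3. GPX4, which reduces lipid hydroperoxides, read 379, 429 and 448 CPM with DMSO, 443, 451 and 604 with HBC530 and 391, 375 and 532 with MsOc3HBC. Replicate 3 of each ligand exceeded every other library of the gene. The difference from DMSO was 0.25 (SE 0.126, 95% interval -0.03 to 0.53) with HBC530 and 0.05 (SE 0.138, 95% interval -0.25 to 0.35) with MsOc3HBC, and 0.10 and -0.13 without the ligand's replicate 3. Glutathione synthetase GSS had HBC530 libraries all above DMSO (69.7, 69.2 and 85.8 compared with 58.7, 67.3 and 67.9 CPM), with a difference of 0.21 (SE 0.109, 95% interval -0.03 to 0.45).

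Of the thioredoxin group, TXNRD1, the selenoprotein that reduces thioredoxin and is itself a target of electrophiles, had 195, 191 and 178 CPM with DMSO, 183, 187 and 160.3 with HBC530 and 171, 192 and 174 with MsOc3HBC. The groups overlapped. Its log2 fold change was -0.09 (SE 0.0896, 95% interval -0.29 to 0.11) and -0.07 (SE 0.0913, 95% interval -0.27 to 0.13) against DMSO. SRXN1, the sulfiredoxin that repairs overoxidized peroxiredoxins, had 11.1, 11.9 and 10.6 CPM with DMSO, 10.3, 11.8 and 10.1 with HBC530 and 9.03, 11.4 and 7.46 with MsOc3HBC. With MsOc3HBC, 2 of 3 libraries were below all DMSO libraries and the other was among them. The difference of -0.26 (SE 0.143, 95% interval -0.57 to 0.06) was not past the test, and that with HBC530 was -0.06 (SE 0.105, 95% interval -0.29 to 0.18). Without MsOc3HBC replicate 3 the former was -0.13, and without replicate 2 it was -0.43. SRXN1 shares 2292 of its 2698 exonic bases with an unnamed gene on the same strand, so reads may have been lost and its level is uncertain. Thioredoxin itself, TXN, had the highest fold change of any member with MsOc3HBC. It had 258, 229 and 236 CPM with DMSO, 236, 234 and 314 with HBC530 and 263, 248 and 385 with MsOc3HBC. Replicate 3 was the highest of both ligands, and the MsOc3HBC libraries overlapped DMSO with or without it. The log2 fold change was 0.31 (SE 0.153, 95% interval -0.03 to 0.65) with an adjusted p of 0.487 (edgeR, Benjamini-Hochberg), and 0.08 without replicate 3 of MsOc3HBC. The peroxiredoxins PRDX1, PRDX3 and PRDX6, which remove hydrogen peroxide and organic peroxides, differed from DMSO by -0.11 to 0.07 with either ligand. PRDX1 shares exonic bases with MMACHC on the opposite strand.

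Heme degradation and iron storage gave the readout most often used for electrophile stress, HMOX1, which cleaves heme to biliverdin, carbon monoxide and iron. HMOX1 (chromosome 22, 35380361 to 35394214 in GRCh38) had 26.2, 26.6 and 27.1 CPM with DMSO, 29.4, 28.5 and 28.2 with HBC530 and 23.8, 22.6 and 28.1 with MsOc3HBC. All HBC530 libraries were above DMSO by a narrow margin. With MsOc3HBC, replicates 1 and 2 were below DMSO and replicate 3 above it. The log2 fold change against DMSO was 0.11 (SE 0.0843, 95% interval -0.08 to 0.30) with HBC530 and -0.10 (SE 0.106, 95% interval -0.33 to 0.13) with MsOc3HBC, which was -0.20 without MsOc3HBC replicate 3 and -0.04 without replicate 2. Ferritin heavy chain FTH1, the ferroxidase subunit, had 361, 405 and 454 CPM with DMSO, 423, 449 and 437 with HBC530 and 361, 369 and 428 with MsOc3HBC. These groups overlapped, with differences of 0.10 (SE 0.0969, 95% interval -0.11 to 0.32) and -0.07 (SE 0.114, 95% interval -0.32 to 0.18) from DMSO, the first being 0.02 without DMSO replicate 1 and 0.19 without DMSO replicate 3. Ferritin light chain FTL and the biliverdin reductase BLVRB had their highest libraries in replicate 3 of each ligand. BLVRB read 30.1, 35.7 and 36.9 CPM with DMSO, 36.6, 36.1 and 51.1 with HBC530 and 34.9, 30.7 and 46.5 with MsOc3HBC, and its 0.27 (SE 0.143, 95% interval -0.05 to 0.58) with HBC530 was the largest fold change of any member in that comparison. FTL differed by 0.16 (SE 0.111, 95% interval -0.08 to 0.41) and 0.10 (SE 0.120, 95% interval -0.16 to 0.36).

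Among the NADPH-producing enzymes and their pathway, IDH1, the cytosolic isocitrate dehydrogenase, had the smallest p of the members with both ligands. It read 101, 95.3 and 95.02 CPM with DMSO, 86.6, 84.4 and 81.8 with HBC530 and 75.8, 83.05 and 83.7 with MsOc3HBC. All 6 ligand libraries lay below all 3 DMSO libraries. The difference was -0.20 (SE 0.0802, 95% interval -0.38 to -0.03) with HBC530 and -0.26 (SE 0.0893, 95% interval -0.46 to -0.07) with MsOc3HBC. Neither passed over all genes, with adjusted p of 0.751 and 0.351 by edgeR with Benjamini-Hochberg adjustment, and from 0.128 to 0.952 over the alternatives of the latter. ME1, the cytosolic malic enzyme, had HBC530 libraries below DMSO (20.1, 20.5 and 17.3 compared with 21.7, 21.0 and 21.7 CPM), with a difference of -0.15 (SE 0.0970, 95% interval -0.37 to 0.06). With MsOc3HBC it was -0.06 (SE 0.0963, 95% interval -0.27 to 0.15). PGD, of the oxidative pentose phosphate pathway, was near 0 in both comparisons, at 0.00 (SE 0.0797, 95% interval -0.18 to 0.18) and -0.05 (SE 0.0899, 95% interval -0.24 to 0.15). Of the nonoxidative enzymes, TKT differed from DMSO by 0.10 and -0.06 and TALDO1 by 0.14 and 0.12.

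In the detoxification group, NQO1, the quinone reductase that is a standard NRF2 readout, had 8.29, 9.11 and 8.35 CPM with DMSO, 8.32, 8.19 and 9.12 with HBC530 and 8.18, 7.39 and 9.40 with MsOc3HBC. The 3 groups overlapped. The log2 fold change of NQO1 (chromosome 16, 69706996 to 69726951 in GRCh38) was -0.01 (SE 0.102, 95% interval -0.24 to 0.22) with HBC530 and -0.05 (SE 0.121, 95% interval -0.32 to 0.22) with MsOc3HBC. GSTP1, a glutathione transferase, read 454, 544 and 579.8 CPM with DMSO, 557, 568 and 700.0 with HBC530 and 498, 463 and 672 with MsOc3HBC. Replicate 3 was the highest library of every treatment. Its differences were 0.21 (SE 0.120, 95% interval -0.05 to 0.48) and 0.05 (SE 0.148, 95% interval -0.27 to 0.38). That with HBC530 was 0.10 without HBC530 replicate 3 and 0.11 without DMSO replicate 1, and that with MsOc3HBC was -0.13 without MsOc3HBC replicate 3. EPHX1, the microsomal epoxide hydrolase, had 91.2, 102 and 102 CPM with DMSO, 101, 102 and 109.9 with HBC530 and 86.2, 88.9 and 98.6 with MsOc3HBC, and differed by 0.08 (SE 0.0870, 95% interval -0.11 to 0.28) and -0.11 (SE 0.0967, 95% interval -0.32 to 0.11). The latter ran from -0.17 without MsOc3HBC replicate 3 to -0.07 without MsOc3HBC replicate 1. EPHX1 overlapped DMSO with either ligand and shares 28 exonic bases with TMEM63A. The efflux pumps ABCC1, which exports glutathione conjugates, and ABCC5 had low libraries in replicate 3 of both ligands. ABCC1 read 72.4, 77.1 and 78.0 CPM with DMSO, 75.1, 78.1 and 49.2 with HBC530 and 67.6, 77.8 and 47.4 with MsOc3HBC. AKR1B1, CBR1, UGDH and GSTM3, which reduce carbonyls, form UDP-glucuronic acid or conjugate glutathione, differed from DMSO by -0.10 to 0.12. For the pair that removes superoxide and hydrogen peroxide, SOD1 differed by 0.14 (SE 0.110, 95% interval -0.10 to 0.39) and 0.18 (SE 0.146, 95% interval -0.14 to 0.50), and catalase CAT by -0.08 (SE 0.0866, 95% interval -0.27 to 0.11) and -0.07 (SE 0.0955, 95% interval -0.28 to 0.14).

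Compared directly, MsOc3HBC and HBC530 gave 0 calls among the 37 members (adjusted p below 0.05, edgeR with Benjamini-Hochberg), as among all 17397 genes (0%). DESeq2 (0.316% of all genes) and limma-voom (0%) also called 0 members, and OSGIN1 received no adjusted p from DESeq2. The unadjusted p was below 0.05 for 1 member, NFE2L2, which was higher with MsOc3HBC, and for 7.32% of all genes, 3.10% on the higher side. The log2 differences ran from -0.21 to 0.25 with a median of -0.04, compared with 0.02 over all genes, and 16 of 37 lay above 0 (53.8% of all genes). The interval of the difference lay within -0.5 to 0.5 for 31 members (51.0% of all genes) and within -1 to 1 for all 37 (86.6%). For the targets this bounds how far the handle-bearing ligand could differ from HBC530 in these libraries. The interval was -0.45 to 0.03 for HMOX1, -0.32 to 0.24 for NQO1, -0.04 to 0.35 for GCLM and -0.16 to 0.33 for GCLC. It was -0.19 to 0.24 for TXNRD1, -0.56 to 0.16 for SRXN1, -0.47 to 0.41 for OSGIN1 and -0.34 to 0.08 for KEAP1. The ligands' libraries did not overlap for GCLM and NFE2L2, which were higher with MsOc3HBC, and for HMOX1, SQSTM1, EPHX1 and TKT, which were lower, 2 and 4 members where 6.83 and 8.50% of all genes did not overlap.

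Same-numbered replicates of the ligands deviated together, most plainly replicate 3, while for replicates 1 and 2 the pairing by number was not clear. With the replicate number as a block, the small differences passed the test for 7 of the 37 members (18.9%), where 11.4% of all genes did, 4.54% higher and 6.90% lower. NFE2L2 was higher with MsOc3HBC, at 0.24 (SE 0.0603, adjusted p = 0.0219), by edgeR with Benjamini-Hochberg adjustment as for all adjusted p that follow. TXN was also higher, at 0.18 (SE 0.0505, adjusted p = 0.0397). The 5 lower members were GPX4 at -0.21 (SE 0.0454, adjusted p = 0.0119), EPHX1 at -0.19 (SE 0.0481, adjusted p = 0.0225), TKT at -0.16 (SE 0.0445, adjusted p = 0.0306), FTH1 at -0.18 (SE 0.0534, adjusted p = 0.0462) and GSTP1 at -0.17 (SE 0.0515, adjusted p = 0.0492). These 7 members belong to 6 of the role groups and moved in both directions. In each of the 3 pairs GPX4, EPHX1, TKT, FTH1 and GSTP1 were lower and TXN and NFE2L2 higher with MsOc3HBC. The block fit picked these members, so their direction within pairs is a description and no further support. In fold terms the differences were from 13.5% lower for GPX4 to 1.18-fold for NFE2L2. None of the classical targets HMOX1, NQO1, GCLM, GCLC, TXNRD1, SRXN1 or OSGIN1 passed with the block, where HMOX1 stood at -0.22 (SE 0.0707, adjusted p = 0.0593) and GCLM at 0.15 (SE 0.0557, adjusted p = 0.0947). Over the 17 alternative settings, the highest adjusted p of the 7 members called with the block lay between 0.971 and 0.986.

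With the block and with trends over GC content and exonic length removed from each library, 0 members passed (1.85% of all genes), and NFE2L2 stood at 0.19 (SE 0.0569, adjusted p = 0.105) (edgeR, Benjamini-Hochberg). FTH1 lost its call although its difference was no smaller, at -0.22 (SE 0.0583, adjusted p = 0.0707) by the same test. EPHX1 stood at -0.12, TKT at -0.09, GSTP1 at -0.04, GPX4 at -0.04 and TXN at 0.02, all closer to 0 than with the block alone. Without replicate 3 of both ligands, 9.16% of all genes passed in either direction, and the share lower alone is not given. Of the members 6 passed (16.2%), all lower with MsOc3HBC. They were HMOX1 at -0.33 (SE 0.0705, adjusted p = 0.00999), FTH1 at -0.26 (SE 0.0525, adjusted p = 0.00640), GSTP1 at -0.23 (SE 0.0556, adjusted p = 0.0167), GPX4 at -0.23 (SE 0.0524, adjusted p = 0.0128), EPHX1 at -0.22 (SE 0.0544, adjusted p = 0.0212) and TKT at -0.20 (SE 0.0510, adjusted p = 0.0246) by edgeR with Benjamini-Hochberg adjustment. Of these, 5 are shared with the 7 called under the block. With the trends removed as well, a setting added after the data were seen, HMOX1 at -0.30 (SE 0.0661, adjusted p = 0.0203) and FTH1 at -0.32 (SE 0.0600, adjusted p = 0.0100) passed (5.41%, compared with 3.78% of all genes, 2.79% lower). HMOX1 was thus lower, not higher, with the reactive ligand in the fits that called it, and in replicate 3 its values were 28.2 CPM with HBC530 and 28.1 with MsOc3HBC.

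**Figure D4:**
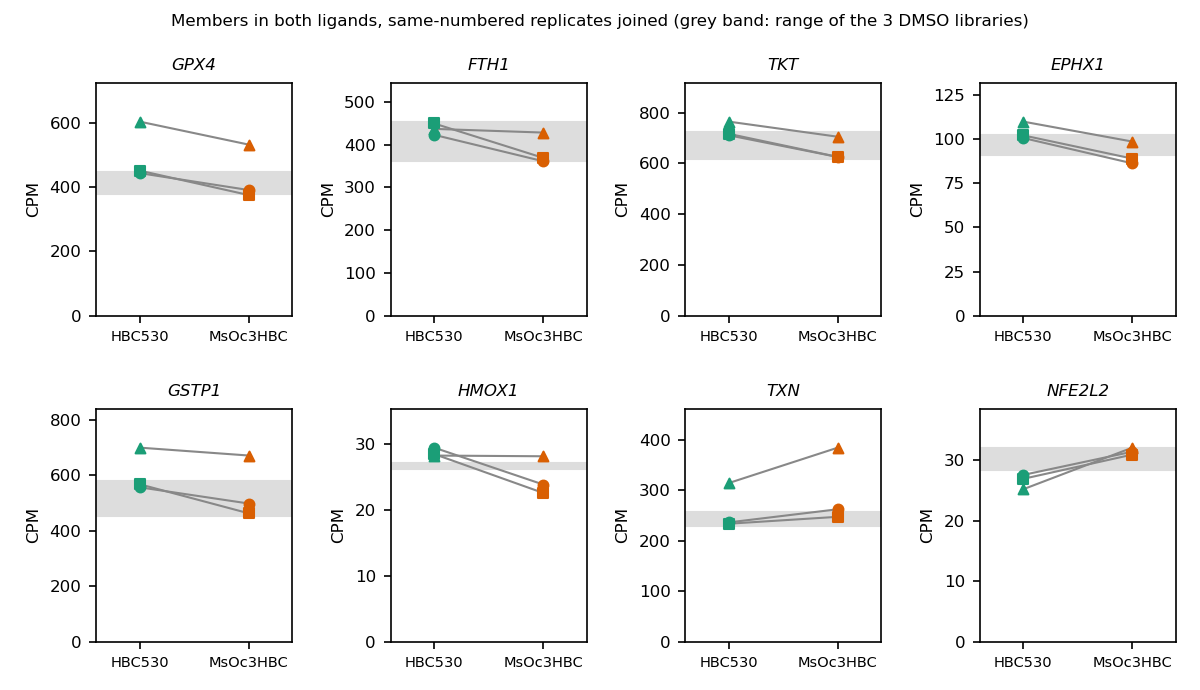
CPM from 0 upward of 8 members with HBC530 and MsOc3HBC, lines joining same-numbered replicates (circle, square and triangle for 1, 2 and 3) and a grey band spanning the 3 DMSO libraries. The lines fall in all 3 pairs for GPX4, FTH1, TKT, EPHX1 and GSTP1 and rise for TXN and NFE2L2, by amounts smaller than the gap between replicate 3 and the others in GPX4, GSTP1 and TXN.

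Replicate 3 of the ligands differed from replicates 1 and 2 along exonic length in these genes. Across the 37 tested members, the log2 deviation of replicate 3 correlated with log2 exonic length at r = -0.669 with HBC530, -0.675 with MsOc3HBC and -0.297 with DMSO, and across all 18041 genes at -0.371, -0.221 and -0.173. With GC content it correlated over the members at 0.359, 0.121 and 0.485 in the same order, highest with DMSO. Over all genes with a GC value these were 0.0806, -0.063 and 0.368. The members share the same library in each value, so these correlations are descriptions. TXN, a short transcript, was 0.42 and 0.59 higher on the log2 scale in replicate 3 of HBC530 and MsOc3HBC, and -0.04 with DMSO. ABCC1, a long one, was at -0.64, -0.61 and 0.06 in the same order. The part of this pattern in the results for TXN, GPX4, GSTP1, BLVRB, FTL, SOD1, ABCC1 and ABCC5 was not tested beyond the fits without replicate 3 and with the trends removed.

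**Figure D5:**
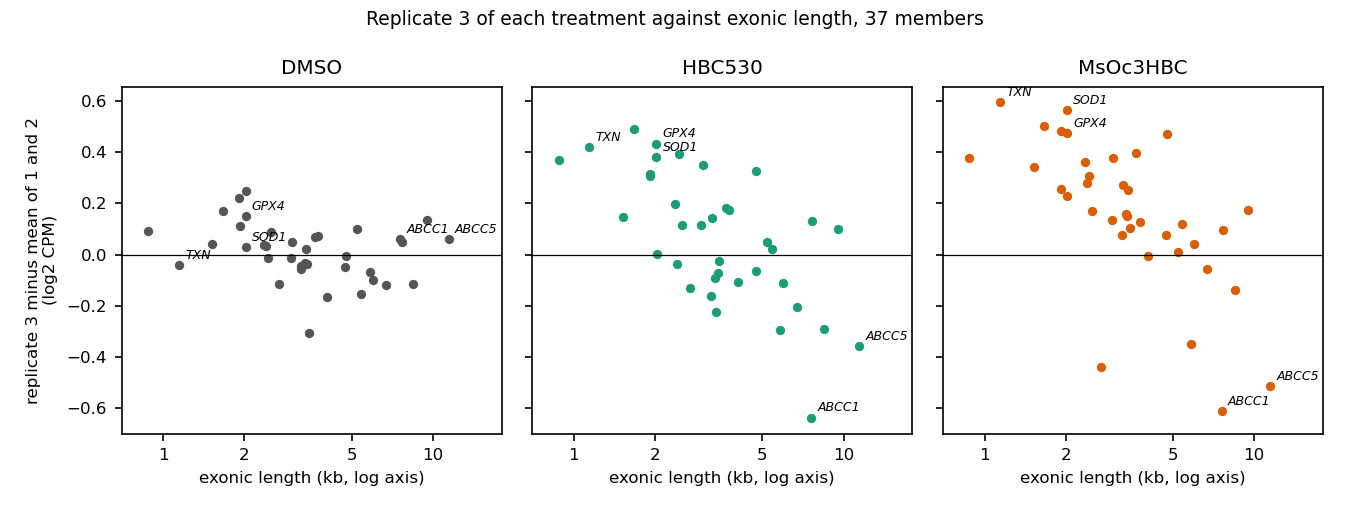
Difference of replicate 3 from the mean of replicates 1 and 2 (log2 CPM) against exonic length in kb on a log axis for the 37 tested members, 1 panel per treatment. Most short members lie above 0 and ABCC1 and ABCC5 below it with both ligands (r = -0.669 and -0.675), with less slope for DMSO (r = -0.297).

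A list of 81 other genes of the same pathways, of which 73 were tested, held changes that the members did not. This list was chosen with earlier results of these data known, so its counts are a description and no test against the members or all genes. With MsOc3HBC against DMSO, 3 of the 73 passed an adjusted p of 0.05, 2 higher and 1 lower, where 0.154% of all genes did (0.0799% higher and 0.0742% lower). SLC7A11, which imports cystine for glutathione synthesis and is driven by NRF2 and by ATF4, had 10.4, 8.71 and 8.48 CPM with DMSO, 14.9, 13.8 and 11.3 with HBC530 and 26.0, 32.9 and 22.9 with MsOc3HBC. All 3 groups were separate, in that order. It rose with MsOc3HBC by 1.58 on the log2 scale (SE 0.143, adjusted p = 0.00142, edgeR with Benjamini-Hochberg adjustment). SESN2, a sestrin that restrains mTORC1 under stress, had 58.9, 66.3 and 63.9 CPM with DMSO, 81.4, 81.3 and 69.3 with HBC530 and 120.0, 131 and 114 with MsOc3HBC, and rose by 0.95 (SE 0.0955, adjusted p = 0.00198, edgeR, Benjamini-Hochberg). Both genes are also known targets of ATF4 in the amino acid response. TXNIP, which binds and inhibits thioredoxin, fell with MsOc3HBC, from 11.5, 11.9 and 11.7 to 7.71, 7.55 and 7.54 CPM, by 0.62 on the log2 scale (adjusted p = 0.0471, edgeR, Benjamini-Hochberg). Without DMSO replicate 1, 1 of the 73 passed. The count was 4 with DESeq2 (0.862% of all genes) and 5 with no filter on low counts. For fits with no filter or with a library left out, the share of all genes is not given.

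With HBC530 against DMSO, 0 of the 73 passed by edgeR, 9 had an unadjusted p under 0.05 (5.07% of all genes), and DESeq2 called 1 (0.136% of all genes). TXNIP had 8.05, 8.13 and 6.76 CPM, below all DMSO libraries, and a log2 fold change of -0.61 (SE 0.106, 95% interval -0.84 to -0.37) with an adjusted p of 0.213 (edgeR, Benjamini-Hochberg). SLC7A11 differed by 0.54 (SE 0.130, 95% interval 0.26 to 0.83) with an adjusted p of 0.751 by the same test. Between the ligands, 0 of the 73 passed without the block (0% of all genes). An unadjusted p under 0.05 by edgeR was reached by 7 (7.32% of all genes), and DESeq2 called 3 (0.316% of all genes). With the block 10 passed (13.7%, compared with 11.4% of all genes), 6 higher and 4 lower with MsOc3HBC. SLC7A11 was 1.03 (SE 0.0810, adjusted p = 0.0000277) and SESN2 0.66 (SE 0.0509, adjusted p = 0.0000277) by edgeR with Benjamini-Hochberg adjustment and the block, compared with 1.03 (SE 0.158) and 0.66 (SE 0.0996) without it, at an adjusted p of 0.491 for each. With the trends removed as well, 4 passed (5.48%, compared with 1.85% of all genes). The remaining role lists, among them the other iron, detoxification, regulator and superoxide genes, had 0 genes past the test against DMSO with either ligand.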

How the data were processed

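Poly(A) RNA of 9 HEK293T libraries was sequenced, 3 for each of DMSO, HBC530 and MsOc3HBC. According to the submitters' processing notes and the methods, the authors used Trimmomatic 0.36 for trimming and STAR 2.5.2b for alignment to GRCh38, then counted unique gene hits with featureCounts of Subread 1.5.2. The deposited files hold the resulting raw counts per gene, with no normalization. The annotation release and the strand setting are not given in the sources used here, so overlapping genes may share reads, as stated beside several of the genes concerned. Among the rest, FTH1 (1267 exonic bases with BEST1), NQO1 (575 with an unnamed gene) and IDH1 (94 with IDH1-AS1) overlap genes on the opposite strand. The authors' tables of differential expression (DESeq2) also hold fold changes, p-values and normalized signal, and only their gene names were used. Those names, as deposited, carry no values.

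Groups were taken from the labels. Each ligand was compared with DMSO, and MsOc3HBC with HBC530, 3 libraries against 3, with edgeR 4.0.16 in R 4.3.3 (filterByExpr, TMM scaling, quasi-likelihood F test) and Benjamini-Hochberg adjustment over all genes tested; calls had an adjusted p under 0.05. CPM and RPKM were computed from the counts, TMM factors and exonic lengths. Alternatives were DESeq2 1.42.0, limma-voom (limma 3.58.1), RLE and upper-quartile scaling, no filter, 1 fit over all 9 libraries, a minimum of 10 counts per library, the replicate number as a block, the block with trends over GC content and length removed (natural splines with 5 degrees of freedom), each library left out in turn, and no replicate 3 of either ligand. The last with trends removed was added after the data were seen. The main fit, the replicate block, DESeq2 and limma-voom were also run on simulated counts with known changes. Those counts held no shared deviation of replicates and no trend over GC content or length. The simulation therefore cannot bear on how the fits handle those features. The gene list, role groups, other pathway genes and named genes (7 classical targets, NFE2L2, KEAP1, members called with or without the block, the 3 members of smallest p in each comparison, and for other pathway genes those called and the 2 of smallest p) were chosen with earlier results of these data known. BLVRB, GSS, MAFG, ME1, PGD, FTL, TKT, ABCC1, SOD1 and CAT were given further values as members of their role groups.

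The replicate numbers are those of the labels. Across 18041 genes, deviations of same-numbered libraries from their group means correlated at 0.167, 0.368 and 0.433 between MsOc3HBC and HBC530. They correlated at 0.087, 0.013 and 0.172 between HBC530 and DMSO, and at -0.111, 0.0097 and 0.0410 between MsOc3HBC and DMSO. For the ligands, MsOc3HBC replicate 2 with HBC530 replicate 1 gave 0.297, above the 0.167 of the replicates numbered 1. MsOc3HBC replicate 1 with HBC530 replicate 2 gave 0.0315. Unlike-numbered pairs with a replicate 3 gave -0.472 to -0.135. Pairing of the ligands by number was thus plain for replicate 3 only. The median standard error over the members was 0.0987, 0.112 and 0.122 (log2) in the 3 comparisons. OSGIN1, AKR1C1 and AKR1B10 had the fewest counts. For single genes, counting noise was not separated from the spread between libraries.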

Additional observations from a re-analysis of the deposited data

How the results depend on the processing

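The number of members called stayed at 0 in all 15 alternatives of each comparison with DMSO. Between the ligands it stayed at 0 in 14 of 17, and was 7 with the replicate block, 6 without replicate 3 of both ligands and 2 with the trends over GC content and length removed as well. The median log2 fold change of the members with HBC530 against DMSO, 0.03, was -0.000599 with the replicate block and the trends removed, and from -0.00878 to 0.0751 when single libraries were left out (lowest without HBC530 replicate 3, highest without HBC530 replicate 2); the other medians moved by less than the spread between replicates. Of the other pathway genes, with HBC530 against DMSO 1 was called by DESeq2 (0.136% of all genes), 2 with no filter and 1 with the block and trends removed. For the fits against DMSO with no filter or with the block and trends removed, the share of all genes is not given. With MsOc3HBC against DMSO, 5 were called with no filter and from 1 to 4 when single libraries were left out. Between the ligands, 3 were called by DESeq2, 2 with no filter, 10 with the replicate block, 4 with the block and trends removed, 10 without replicate 3 of both ligands and 9 with trends removed as well. Of all genes, DESeq2 called 0.316%, the block 11.4% and the block with trends removed 1.85%. Without replicate 3 of both ligands 9.16% of all genes were called, and 3.78% with trends removed as well. The replicate block changed no call of a member against DMSO; there the samples share only a number, and its median values also stayed within the spread. Fits that left a group with 2 libraries and no replicate 3 rest on fewer samples, and the cause of the other differences was not tested.

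Of 799 alternative values for 17 named members, 745 stayed on the same side of the threshold and in the same direction, 15 passed the threshold, all between the ligands, and 39 changed direction, none of them called and none larger than 0.131. With HBC530 against DMSO, NQO1 was 0.00459 with upper-quartile scaling, and GCLM was 0.0039, OSGIN1 -0.0754, KEAP1 -0.0155 and EPHX1 -0.000599 with the block and trends removed. When single libraries were left out, NQO1 ran from -0.0508 to 0.0360, GCLM from -0.133 to 0.0487, OSGIN1 from -0.131 to 0.125 and TXN from -0.0299 to 0.191. With MsOc3HBC against DMSO, OSGIN1 was 0.00306 with upper-quartile scaling, and KEAP1 was 0.00167 and TKT 0.0352 with the block and trends removed. With single libraries left out, GPX4 ran from -0.127 to 0.141, GSTP1 from -0.128 to 0.155, OSGIN1 from -0.126 to 0.0785, FTH1 from -0.155 to 0.0169 and NQO1 from -0.142 to 0.0299. Between the ligands, TXNRD1 was -0.0144, OSGIN1 0.0636 and KEAP1 0.0183 with the block and trends removed, TXNRD1 was -0.0284 and GSR -0.00132 without replicate 3 of both, and GCLC was -0.0240, TXNRD1 -0.0548, GSR -0.0406 and TXN -0.0491 with trends removed as well. There, leaving out single libraries gave -0.140 to 0.107 for OSGIN1, -0.129 to 0.0450 for NQO1, -0.00167 to 0.135 for GCLC, -0.0387 to 0.0658 for TXNRD1 and -0.0323 to 0.347 for TXN.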
